A study of Mus musculus with 21 samples.

Results

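The cytosolic ribosomal protein genes encode the protein parts of the ribosome that translates nuclear mRNA. They were taken here by symbol: Rpl or Rps followed by a number, an optional single letter (a, x or l) and an optional further digit. Rplp0, Rplp1, Rplp2 and Rpsa were added, and names marked as pseudogenes were left out. Rpl36al does not have this form and is not a member. Of 45664 gene rows 88 had such a name and 87 had a summed count of at least 30 over the 21 libraries, 50 of the large subunit (Rpl) and 37 of the small subunit (Rps). The row left out, Rpl10l, had 0 counts. All 87 were among the 22294 genes tested.

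The 21 libraries came from the ventral pons, the brainstem block around the facial nucleus, of C57BL/6 mice of the CX3CR1GFP/wt line, in which a green fluorescent protein replaces 1 copy of the fractalkine receptor gene that marks microglia. All groups shared this genotype. The right facial nerve was cut at the stylomastoid foramen at 8 weeks of age, and 3 libraries each were made of the lesion (right) and contralateral (left) pons at day 7 (age 9 weeks), day 14 (10 weeks) and day 30 (12 weeks). The seventh group, day 0, was 3 libraries of the left pons of unoperated mice of 8 weeks. Age changed with the day, and so did the lane code in the column headers, except that days 0 and 7 carry the same one. Some index sequences in the headers of days 0 and 7 are also the same, so the equal code does not show a shared run. Age, lane code and any difference in run cannot be told apart from the day. Side cannot be told apart from lesion, and both sides of a day carry the same lane code.

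A ribosome holds a small subunit, which reads the mRNA, and a large subunit, which joins amino acids. Each subunit is built in the nucleolus from ribosomal RNA and 1 copy of most of its proteins, and the acidic proteins P1 and P2, bound to P0, form the stalk of the large subunit that recruits translation factors. Ribosomal protein mRNAs are short and abundant, and many begin with a C followed by an unbroken run of pyrimidines, the 5′ terminal oligopyrimidine tract, through which growth signals set how strongly they are translated. Their sequences are copied across the genome as processed pseudogenes, so a short read often fits more than 1 place.

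The start of the transcript is where this tract lies, so it is shown first for 7 members whose levels are described below. Windows are from RefSeq (GRCm38.p6), read 5′ to 3′ on the gene's strand, and span 20 bases before the annotated start and 15 from it on. Capitals mark the unbroken run of C and T that includes the start base. Rpl15 (chr14:18270972-18271006, minus strand), Rpl35 (chr2:39005117-39005151, minus strand), Rpl35a (chr16:33056462-33056496, plus strand; 1 of 3 annotated starts), Rpl38 (chr11:114668560-114668594, plus strand) and Rplp2 (chr7:141447631-141447665, plus strand) have such a run. Rplp0 (chr5:115559447-115559481, plus strand) and Rps4x (chrX:102189377-102189411, minus strand) have none at the annotated start.
Rpl15: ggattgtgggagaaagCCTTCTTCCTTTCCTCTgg
Rpl35: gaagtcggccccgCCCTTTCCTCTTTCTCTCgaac
Rpl35a: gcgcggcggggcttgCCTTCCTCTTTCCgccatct
Rpl38: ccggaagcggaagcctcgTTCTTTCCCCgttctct
Rplp2: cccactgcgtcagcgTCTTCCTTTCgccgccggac
Rplp0: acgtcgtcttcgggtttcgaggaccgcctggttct
Rps4x: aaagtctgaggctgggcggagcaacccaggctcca
The runs are 17, 18, 13, 10 and 10 bases long in the first 5. An entry was found for 62 of the 87 members, with 74 starts. A run of at least 5 C or T bases over the start base, searched on the gene's strand only, was present at a start of 20 of these 62 members (32.3%) and at 27.0% of the 74 starts, against 10.1% of all 32851 annotated starts. The median run was 0 bases in the members and in all annotated starts. The windows shown were chosen for the members' levels and hold the run more often than the members as a whole. A start that is a few bases off loses the run, so these shares describe the annotated starts and not the transcripts. Rpl32, which is described below, had no entry.

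In depth, total counts were 35874913 to 41448945 in the day 0 libraries and 17358868 to 29827291 in the others. The injury genes Atf3 and Sprr1a, which motor neurons switch on after axotomy, were read as a check of the labels. Atf3 stood at 10.1 to 96 CPM in lesion libraries and 0.994 to 1.86 CPM in the others. Sprr1a stood at 35.1 to 295 CPM (a gene's count scaled to its library's TMM-adjusted total) in lesion libraries and at 0.155 to 1.06 CPM in the others. Of the tissue's marker lists, 14 neuron genes summed to 14600 to 18100 CPM and 9 motor neuron genes to 242 to 511 CPM in every library. 8 choroid plexus genes, a tissue next to the block, ranged from 13.1 to 4600 CPM, with the highest value in a day 7 lesion library, and their part in the results below was not tested. The mitochondrial share was 2.81% in day 14 lesion replicate 2 against 4.4% and 4.48% in the other libraries of that group.

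Together the 87 members took 0.335% to 0.451% of all counts. The widest exact (Clopper-Pearson) 95% interval of a library's share was 0.405% to 0.411%, around 0.408% in day 30 contralateral replicate 2, which covers counting error only. The 3 unoperated libraries held 0.359%, 0.451% and 0.385%. At day 7 the lesion side held 0.38%, 0.439% and 0.38% and the contralateral side 0.385%, 0.398% and 0.375%, and the sides overlapped. At day 14 the lesion side held 0.362%, 0.44% and 0.391% and the contralateral side 0.335%, 0.342% and 0.347%, and every lesion library was above every contralateral one. At day 30 the lesion side held 0.375%, 0.385% and 0.389% and the contralateral side 0.393%, 0.408% and 0.42%, so the order of the sides was the opposite, again with no overlap. The group means spanned 0.0655 percentage points, less than the 0.0913 between the lowest and highest of the 3 unoperated libraries. In bulk tissue, fewer cells of a type and less RNA per cell cannot be told apart.

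**Figure D1:**
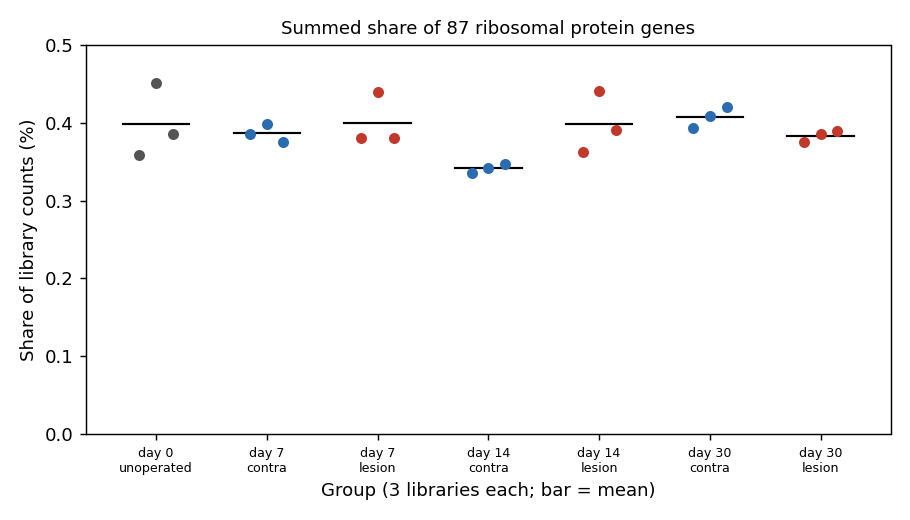
Share of each library's counts in the 87 ribosomal protein genes (y axis, percent) by group (x axis), with 1 point per library and a bar at the mean of 3. The 3 contralateral libraries of day 14 lie lowest, at 0.335% to 0.347%, and the highest library is an unoperated one at 0.451%.

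Libraries of 1 group differed in how many members were high. Set against each member's own mean over the 21 libraries (log2 of CPM plus 0.5), 67 of 87 members were above it in unoperated replicate 2, 74 in day 7 lesion replicate 2 and 77 in day 14 lesion replicate 2. The other libraries of those groups had 19 to 58 above it. In the 3 day 14 contralateral libraries 11, 12 and 8 members were above their own mean, and in the 3 day 30 contralateral libraries 65, 68 and 75 were. As group means, 50 of the 87 members were lowest in the day 14 contralateral pons, 37 were highest in the day 30 contralateral pons and 29 were highest at day 0. For the 60 members with at least 5 CPM the coefficient of variation over the 21 libraries had a median of 10.6% and ran from 5.86% (Rpl7l1) to 21.4%.

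The 3 members with the most counts were Rpl4 (398 CPM on average, 360 to 455 over libraries), Rps3 (360 CPM, 305 to 415) and Rpl8 (319 CPM, 271 to 397), which together held 27.8% of the members' counts. Rpl4 and Rpl8 are core proteins of the large subunit, and Rps3 sits at the mRNA entry of the small subunit. Per kb of exon in the authors' length column the order changed: Rplp1, the stalk protein P1, was highest at 526 CPM per kb, then Rpl8 at 370, Rpl4 at 280 and Rps15 at 280. The median member stood at 8.97 CPM per kb. At the bottom were Rpl39l (30 counts over all libraries, 0.0769 CPM per kb), Rps12l1 (48 counts, 0.217 CPM per kb) and Rpl24 (138 counts, 0.267 CPM per kb). Rpl24 encodes a standard protein of the large subunit.

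The levels were set beside how much of a gene's sequence is its own. In GENCODE M21 (GRCm38) 86 members were found. A median of 52.4% of a member's 50-base stretches, the length of a read, occurred in no other gene's transcripts. The stretches came from a single transcript per member, the longest protein-coding one where there was any. A match on either strand counted as shared. A shared stretch with an annotated pseudogene was found for 83 of the 86, and Rpl7a shared stretches with 121 of them. Across the 86 genes, which share libraries and are not independent replicates, the share of own stretches and CPM per kb had a Spearman rho of 0.4. The 19 members with up to 25% had a median of 3.47 CPM per kb, the 21 with 25% to 50% one of 8.44, the 29 with 50% to 75% one of 19.9 and the 17 above 75% one of 17.4, so the order did not go on to the top class. Rpl24 had 18.3% and shares exon bases with Gm28037 on the same strand. How reads with several matches were counted is not given in the sources used here, so levels of different members are not levels of different mRNAs alone, and the part of shared sequence in them was not tested. Rpl39l, all of whose stretches are its own, was low all the same. Rps12l1, Rps3a2, Rps3a3 and Rps4l are not annotated as protein coding.

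**Figure D2:**
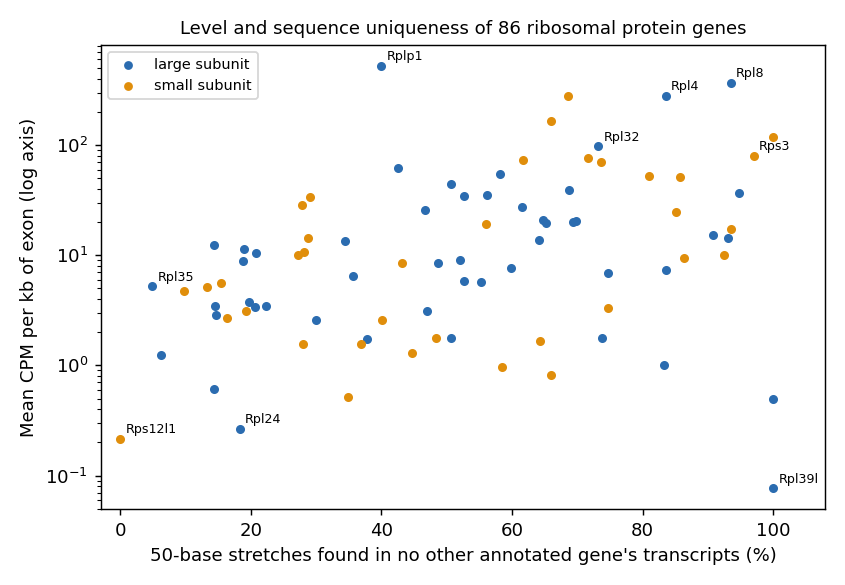
Mean level of 86 members (y axis, CPM per kb of exon, log axis) against the percentage of their 50-base stretches found in no other annotated gene (x axis), 1 point per gene, coloured by subunit. Rplp1 at 526 and Rpl8 at 370 CPM per kb lie at the top, and Rpl39l is low although all of its stretches are its own.

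Lesion against contralateral pons at day 7 asks what the cut changes in the tissue that holds the injured motor neurons. No member was called at an adjusted p under 0.05 by edgeR's quasi-likelihood test (Benjamini-Hochberg over all genes), where 1.65% of all genes were called. At an unadjusted p under 0.05 there was 1 member, and DESeq2's Wald test called 0 (2.01% of all genes). The share of all genes at this unadjusted threshold was not counted, so such counts of members, here and below, have no reference. Log2 differences were above 0 for 62 of 87 members, against 47.3% of all genes, with a median of 0.05, and all 3 lesion libraries lay above the contralateral ones for 7 members (8.05%, against 7.26% of all genes). Without day 7 lesion replicate 2 the median was -0.03, so the direction at day 7 rested on that library. The most abundant members were level: Rpl4 stood at 396, 418 and 389 CPM on the lesion side and at 406, 419 and 391 on the other. The widest values, 1.84 for Rps12l1 and -1.21 for Rpl39l, belong to genes with under 50 counts in all libraries together and are no measure of a fold.

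At day 14 most members had log2 differences above 0, and few passed the test. The log2 difference was above 0 for 81 of 87, against 50% of all genes. The members' median was 0.22 (a fold of 1.16), where the median of all genes was 0. Among other genes with at least 5 CPM, 81.3% of those with an exon length up to 1000 bases were above 0. From there to 2000 bases 79.5% were, and above 4000 bases 31.7%. Of nuclear respiratory chain genes 69 of 74 were above 0, and of mitochondrial ribosome genes 68 of 75. The members' median was 0.22 in the large and 0.22 in the small subunit. For 43 members (49.4%) all 3 lesion libraries were above all 3 contralateral ones, against 10.7% of all genes, and for none the reverse. The test called 5 members higher (5.75%, against 2.58% of all genes) and none lower (1.31% of all genes, 3.88% in either direction). This compares the sides and does not say which side changed. Values of the 5 against day 0 are given below. At an unadjusted p under 0.05 there were 33 members, all higher, with no count over all genes to set beside them. The 5 called genes lie on 5 chromosomes in GRCm38 (GENCODE M21): Rplp0 at chr5:115559467-115563727, Rpl32 at chr6:115805505-115808747, Rpl35 at chr2:39001580-39005624, Rpl35a at chr16:33056453-33060189 and Rps4x at chrX:102184941-102189394.

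**Figure D3:**
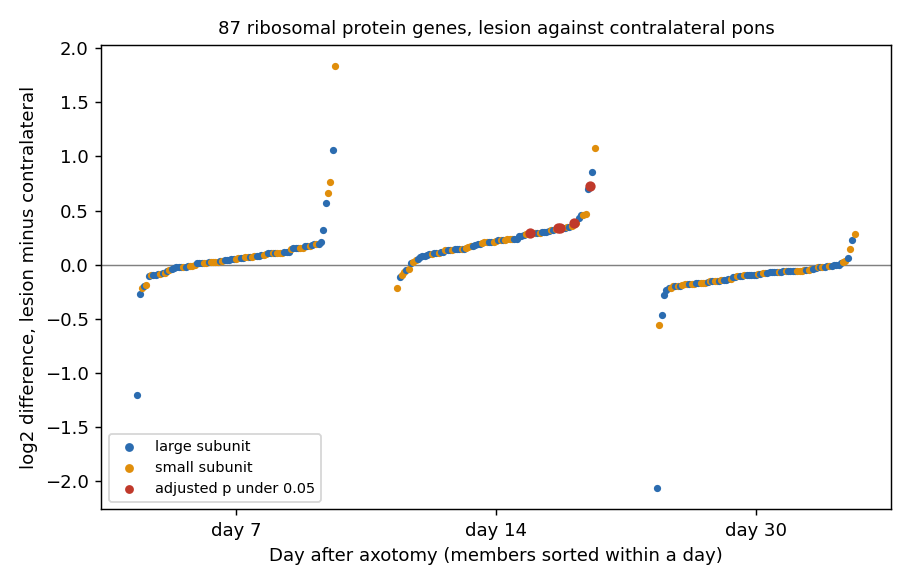
Log2 difference between lesion and contralateral pons (y axis) of the 87 members at days 7, 14 and 30 (x axis), sorted within each day and coloured by subunit, with members past an adjusted p of 0.05 in red. At day 14 81 of 87 points lie above 0, at day 30 7 of 87 do, and the 5 red points are all at day 14.

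Of the stalk proteins, Rplp0, the P0 base that binds the large subunit's RNA, stood at 94.3, 106 and 97.5 CPM on the lesion side at day 14 and at 78.2, 78.9 and 77.3 CPM on the contralateral side. It was higher on the lesion side by 0.34 ± 0.07 (log2 ± SE, edgeR adjusted p = 0.0028). The sides did not overlap, and the 3 contralateral libraries were close to each other. Rplp1 (P1) stood at 238, 285 and 257 against 228, 229 and 229 CPM, without overlap, and its difference of 0.19 ± 0.09 did not pass the test (edgeR adjusted p = 0.28). Rplp2 (P2) stood at 35.9, 47.2 and 40.8 against 33.7, 31.8 and 34.9 CPM, a difference of 0.3 ± 0.11 (edgeR adjusted p = 0.13). All 3 stalk genes were thus higher in each lesion library than in any contralateral one, and only Rplp0 was called.

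Among other proteins of the large subunit, Rpl32 stood at 52.3, 57.9 and 53.2 CPM on the lesion side and at 41.1, 40.8 and 43.4 CPM on the contralateral side. It was higher on the lesion side by 0.38 ± 0.09 (edgeR adjusted p = 0.013) with no overlap between sides. Its exons hold Snora7a on the same strand and meet Cand2 on the other. Rpl35a, whose human counterpart is mutated in Diamond-Blackfan anaemia, stood at 26.6, 35.3 and 29 against 24.6, 22 and 25.5 CPM. The difference was 0.34 ± 0.09 (edgeR adjusted p = 0.033). The lowest lesion library of Rpl35a was just above its highest contralateral one. Rpl35, which lies near the exit of the peptide tunnel, stood at 6.83, 10.9 and 6.13 against 4.55, 4.98 and 4.93 CPM. The difference was 0.73 ± 0.18 (edgeR adjusted p = 0.021). Lesion replicate 2 was the highest library, and no lesion library fell among the contralateral ones. Only 4.91% of the 50-base stretches of Rpl35 are its own, and it meets Arpc5l and Wdr38 on the other strand.

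The member of the small subunit that passed was Rps4x, the X-linked protein S4. It stood at 47.1, 53.3 and 50.1 CPM on the lesion side at day 14. The contralateral side stood at 40.9, 40.9 and 41.3 CPM, a difference of 0.29 ± 0.07 (edgeR adjusted p = 0.024). The 3 contralateral values were nearly equal and lay clear of the lesion side. Rpsa, the small subunit protein also described as a laminin receptor, stood at 30.8, 42 and 36.5 against 33.7, 35.5 and 33.2 CPM, and its sides overlapped (0.1 ± 0.11, edgeR adjusted p = 0.7). Just past the threshold came the abundant Rpl8 (300, 397 and 319 against 286, 275 and 271 CPM, edgeR adjusted p = 0.054) and Rps3 (332, 398 and 362 against 305, 314 and 309 CPM, edgeR adjusted p = 0.074).

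Which libraries were included decided how many members passed at day 14. Rplp0 was the 1 member called without lesion replicate 2, without contralateral replicate 1 and without contralateral replicate 2, and 3 were called without contralateral replicate 3. Over all genes 1.98% to 2.26% were called in these 4 fits. Without lesion replicate 1, the library with the lowest member share of its group, 21 members and 9.02% of all genes were called. With all libraries and same-numbered ones as a replicate block, 22 members and 8.57% of all genes were called. Lesion replicate 2 has both the highest member share of its group and the low mitochondrial share given above; without it the median was 0.15, Rpl35 differed by 0.43 (edgeR adjusted p = 0.28) and Rpl35a by 0.21 (edgeR adjusted p = 0.3).

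**Figure D4:**
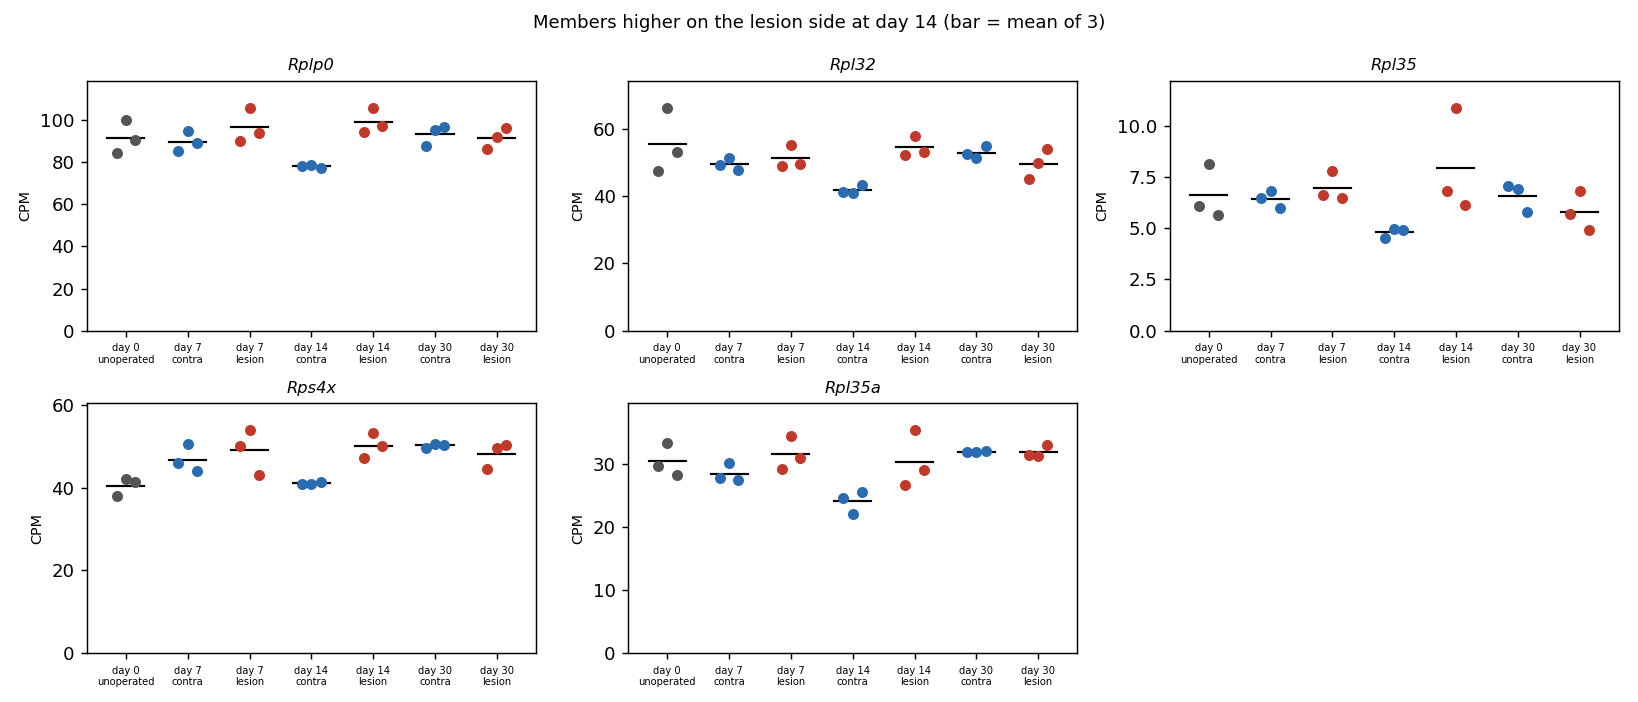
CPM per library (y axes from 0) of the 5 members called at day 14 in the 7 groups (x axes), with 1 point per library and a bar at the mean of 3. In each panel the 3 day 14 contralateral points lie below the 3 day 14 lesion points, such as 77.3 to 78.9 against 94.3 to 106 CPM for Rplp0.

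At day 30 most members had log2 differences below 0, and none passed the test. The day 30 sides follow the sample descriptions, which assign the count columns opposite to the side letters in their names; assigned so, Sprr1a was high in the 3 lesion libraries. No member was called by edgeR (1.16% of all genes were), 4 had an unadjusted p under 0.05 and DESeq2's Wald test called 0 (1.52% of all genes). The log2 difference was above 0 for 7 of 87 members, against 50.7% of all genes, with a median of -0.1. Among other genes with at least 5 CPM, 18.9% of those with an exon length up to 1000 bases were above 0. From there to 2000 bases 22.7% were, and above 4000 bases 64%. Of nuclear respiratory chain genes 5 of 74 were above 0, and of mitochondrial ribosome genes 5 of 75. For 21 members (24.1%) all 3 lesion libraries were below all contralateral ones, against 8.28% of all genes. Rpl19, a large subunit protein at the bridge between subunits, had the smallest adjusted p. It stood at 2.9, 3.04 and 3.31 CPM on the lesion side and at 3.95, 4.62 and 4.23 CPM on the other (-0.47 ± 0.17, edgeR adjusted p = 0.34). Rps3 stood at 353, 354 and 370 against 372, 394 and 415 CPM, without overlap (-0.14 ± 0.07, edgeR adjusted p = 0.72).

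The difference between the day 30 and the day 14 lesion effect was below 0 for 84 of 87 members, with a median of -0.31 on the log2 scale. Of all genes 50.5% were above 0. Among other genes with at least 5 CPM, 13.3% of those with an exon length up to 1000 bases were above 0 (median -0.26). From there to 2000 bases it was 14.7% (median -0.19), and above 4000 bases 70.1% (median 0.1). Of nuclear respiratory chain genes 5 of 74 were above 0 (median -0.29), and of mitochondrial ribosome genes 5 of 75 (median -0.22). With the exon length offset described below the members' median was -0.16. The interaction test called no member (0.0807% of all genes were called). At an unadjusted p under 0.05 there were 38 members, all with a smaller effect at day 30, again with no count over all genes. DESeq2's Wald test called 2 (1.24% of all genes). With same-numbered libraries as a replicate block, 13 members were called, all with a smaller effect at day 30, and 3.34% of all genes. Same-numbered libraries met the correlation rule for pairing given below on day 30, and pairing on day 14 is undecided. Rplp0 had the smallest adjusted p (-0.37 ± 0.1, edgeR adjusted p = 0.14), followed by Rpl32 (-0.48 ± 0.13, edgeR adjusted p = 0.15). Without day 14 lesion replicate 1 the interaction test called 18 members and 4.48% of all genes. Between day 14 and day 7 the median difference of the effect was 0.16 and no member was called (0% of all genes). There 8 members had an unadjusted p under 0.05, and DESeq2 called 0 (0.00449% of all genes). Between day 30 and day 7 the median difference was -0.16 and no member was called (0.0269% of all genes). There 1 member had an unadjusted p under 0.05, and DESeq2 called 0 (0.17% of all genes).

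Other short genes had medians of the same sign on the same days. Members are short, with a median exon length of 1464 bases against 4172 for the other genes with at least 5 CPM. Among those other genes the day 14 median log2 difference was 0.15 for the 513 with an exon length up to 1000 bases, 0.11 from there to 2000 bases, 0.04 from there to 4000 bases and -0.07 above. At day 30 the same classes had medians of -0.11, -0.07, -0.02 and 0.03. Members of the same classes had 0.23, 0.24, 0.16 and 0.24 at day 14 (31, 29, 22 and 5 genes) and -0.11, -0.1, -0.07 and -0.1 at day 30. With an offset that levels each library over exon length, chosen after seeing the data, the members' median was 0.13 at day 14 and -0.03 at day 30. That offset left 4 of the 5 members called at day 14, and Rps4x did not pass with it (0.2, edgeR adjusted p = 0.063). Beyond this offset, the part of exon length in the members' differences was not tested.

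Related lists were read the same way, beside the 2.58% of all genes called higher at day 14. For these lists and those of other cells, rose and fell between sides mean called higher and lower on the lesion side. Of 75 genes of the mitochondrial ribosome, whose products translate mitochondrial mRNA, 3 rose at day 14, a share near that of all genes, and none fell, with a median of 0.14 at day 14 and -0.09 at day 30. The 3 were Mrpl52 (0.38 ± 0.09, edgeR adjusted p = 0.018), Mrpl28 (0.31 ± 0.08, 0.024) and Mrps6 (0.28 ± 0.08, 0.043). Of 22 translation factor genes, mostly of the oligopyrimidine tract class, 2 rose at day 14, with medians of 0.15 and -0.05. They were Eef1b2, an exchange factor of elongation (from 136 ± 0.661 to 170 ± 15.5 CPM, mean ± SD, n = 3, edgeR adjusted p = 0.025), and Npm1, a nucleolar chaperone (from 57.2 ± 1.37 to 68 ± 4.67 CPM, edgeR adjusted p = 0.042). Of 37 ribosome assembly genes 2 rose at day 14, the snoRNP protein gene Nhp2 (0.42 ± 0.1, edgeR adjusted p = 0.015) and Nop16 (0.34 ± 0.09, 0.03), with medians of 0.09 and -0.02. Of 12 genes of RNA polymerase I, which transcribes ribosomal RNA, and of 74 nuclear genes of the respiratory chain none was called at day 14 or 30. Their medians were 0.07 and 0.15 at day 14 and 0 and -0.15 at day 30, and 6 of the 12 and 5 of the 74 were above 0 at day 30. The 137 tested ribosomal protein pseudogene rows had medians of 0.25 and -0.12, and 3 rose at day 14, again a share near that of all genes: Rpl14-ps1 from 67.4 ± 2.96 to 82.4 ± 8.3 CPM (mean ± SD, n = 3, edgeR adjusted p = 0.037), Rpl22-ps1 (0.62 ± 0.17, 0.034) and Rps15a-ps3, which had under 1 CPM. Read counts cannot say which of a member and its pseudogene copies gave a shared read.

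The lists of other cells were read the same way. Of 15 activated microglia genes 8, 11 and 11 rose at days 7, 14 and 30, with medians of 0.75, 0.91 and 0.8. Their summed level was 2110 to 2680 CPM on the lesion side and 1630 to 1720 CPM on the contralateral side at day 14, and 2290 to 2510 against 1880 to 2080 CPM at day 30. Of 14 homeostatic microglia genes 8, 7 and 6 rose. The homeostatic list had a median of 0.38 at day 30. Of 9 motor neuron genes 4 fell and 1 rose at day 14, with a summed level of 251 to 292 CPM on the lesion side and 337 to 389 CPM on the other. Of 14 neuron genes 2 rose and 2 fell at day 14. Of the astrocyte, oligodendrocyte, endothelial, choroid plexus and red cell lists no gene was called at day 14, with medians of 0.08, 0.06, -0.13, -0.81 and -0.21, and of the 13 protein genes of the mitochondrial genome none was, with a median of -0.24. No marker gene was at 0 over a whole group. The part of these cells in the members' differences between sides was not tested at any day.

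Each operated group was also set against the unoperated pons, which asks how the pons of each side differed from that of mice before surgery. These 6 comparisons share the 3 day 0 libraries, and those of the day 14 contralateral pons share libraries with the comparison of sides as well. On the contralateral side at day 7, 5 members were higher and 5 lower (6.84% and 3.66% of all genes), with a median log2 difference of -0.03. At day 14, 5 were higher and 20 lower (5.75% and 23% of members, against 9.09% and 6.73% of all genes), with a median of -0.22. At day 30, 15 were higher and 2 lower (9.32% and 6.81% of all genes), with a median of 0.06. On the lesion side 9 were higher and 2 lower at day 7 (8.14% and 4.32%), 9 and 4 at day 14 (9.78% and 7.03%), and 11 and 7 at day 30 (12.7% and 9.69%), with medians of -0.02, -0.01 and -0.05. With library totals alone in place of TMM scaling the splits of higher and lower were 13 and 4 for the day 30 contralateral side and 7 and 4, 9 and 7, and 10 and 10 for the lesion side at days 7, 14 and 30. Of all genes 19.2%, 13%, 17.4% and 24.7% were called in either direction there, in the same order. With the exon length offset the splits were 7 and 14 for the day 14 contralateral side and 13 and 6, and 18 and 5, for the lesion side at days 7 and 30. Of all genes 15.1%, 14.3% and 23.1% were called in either direction with it, in the same order. Other lists differed from day 0 too. Of 10 oligodendrocyte genes 3 to 6 fell in each of the 6 comparisons, from a summed level of 32900 to 35100 CPM at day 0. Of 8 endothelial genes 2 to 5 fell in each, and all 5 red cell genes had differences below 0 in each, none of them called. The mitochondrial share was 3.05% to 3.6% at day 0 and 6.31% to 7.29% in the day 30 contralateral pons. Their part in the members' differences from day 0 was not tested.

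Of the 6 groups the day 14 contralateral pons had the most members called below day 0. Other genes with an exon length up to 1000 bases had a median of -0.17 in the same comparison. Of 74 nuclear respiratory chain genes 25 were lower and 1 higher there (median -0.18), and of 75 mitochondrial ribosome genes 17 were lower and 2 higher (median -0.14). Rps6, the small subunit protein phosphorylated by S6 kinases, stood at 7.68, 7.53 and 6.67 CPM there and at 10.6, 12.6 and 9.52 CPM at day 0, and fell by 0.58 ± 0.12 (edgeR adjusted p = 0.00081). Rpl12, near the base of the stalk, stood at 5.04, 5.09 and 4.57 against 6.71, 8.55 and 7.94 CPM and fell by 0.66 ± 0.12 (edgeR adjusted p = 0.00025). Of the 5 members higher on the lesion side at day 14, Rplp0, Rpl32 and Rpl35a were lower than day 0 on the contralateral side (-0.23 ± 0.07, -0.41 ± 0.09 and -0.34 ± 0.09; edgeR adjusted p = 0.019, 0.0017 and 0.0087). On the lesion side their differences from day 0 were 0.11 ± 0.07, -0.03 ± 0.09 and 0 ± 0.09 and did not pass. Rpl35 passed on neither side (-0.46 ± 0.18 contralateral and 0.27 ± 0.17 lesion). The contralateral value of Rplp0 did not pass under 5 of 16 alternatives. Rps4x stood at 41 CPM on the contralateral side and 40.5 CPM at day 0 (0.02 ± 0.07), and was higher than day 0 on the lesion side at day 14 (0.31 ± 0.07, edgeR adjusted p = 0.0037). It was also higher on the lesion side at days 7 and 30 (0.27 and 0.25) and on the contralateral side at day 30 (0.31), each ± 0.07 and with an edgeR adjusted p of 0.014, 0.016 and 0.004. Without unoperated replicate 2, the library with the highest member share, 8 members were lower in the day 14 contralateral pons and 5 higher, and without contralateral replicate 2 there were 13 and 1. The shares of all genes called in these fits are not given here.

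A few members differed from day 0 in every operated group. Rpl15, a core protein of the large subunit, stood at 28.6, 28.1 and 36.2 CPM in the unoperated pons and at 46.2 to 57.2 CPM in the 18 operated libraries, with no overlap. Its log2 differences were 0.75, 0.63 and 0.85 on the contralateral side at days 7, 14 and 30 and 0.76, 0.77 and 0.69 on the lesion side (each ± 0.08, edgeR adjusted p from 4.6e-08 to 5.8e-06). Each of these passed under each alternative tried. Rpl15 meets Nkiras1 on the other strand, and 69.8% of its 50-base stretches are its own. Between the sides of a day it did not differ by the test.

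Rpl38, a large subunit protein at the surface, stood at 2.37, 2.41 and 2.89 CPM at day 0 and at 3.18 to 5.3 CPM in the operated libraries. Its log2 differences ran from 0.57 ± 0.16 (day 14 contralateral, edgeR adjusted p = 0.015) to 0.86 ± 0.16 (day 30 contralateral, 0.00028). Rpl22l1, the paralog of Rpl22, stood at 20.6, 23.9 and 22.4 CPM at day 0 and at 24.4 to 31.8 CPM after, with no overlap, and its differences ran from 0.25 ± 0.08 (edgeR adjusted p = 0.043) to 0.44 ± 0.08 (0.00044). Rps3a2, annotated as a processed pseudogene with 9.83% of its stretches its own, stood at 2.18, 2.44 and 2.68 CPM at day 0 and at 3.13 to 5.03 CPM after, with differences from 0.55 ± 0.15 to 0.88 ± 0.15. All 6 comparisons passed for each of these genes. Without day 14 contralateral replicate 2 their values on that side did not pass: Rpl38 was at 0.45 (edgeR adjusted p = 0.11), Rps3a2 at 0.43 (0.1) and Rpl22l1 at 0.21 (0.18). Rpl38 also missed the threshold there without unoperated replicate 2, and Rpl22l1 under 6 of 16 alternatives in all, library totals alone and only the groups compared among them. On the lesion side Rpl22l1 missed it at each day without unoperated replicate 1.

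Rplp2 went the other way. It stood at 47, 64 and 50.1 CPM at day 0 and at 31.8 to 47.2 CPM in the operated libraries, so that a single operated library, day 14 lesion replicate 2, reached the lowest unoperated value. It fell in each comparison, by 0.38 ± 0.11 (day 14 lesion, edgeR adjusted p = 0.017) to 0.68 ± 0.11 (day 14 contralateral, 0.00012). Without unoperated replicate 2, its highest library, it passed in the day 14 contralateral pons alone. Its exons hold Snora52 on the same strand. Rplp0 and Rplp1, its partners in the stalk, did not share this: Rplp0 was lower than day 0 in the day 14 contralateral pons, and Rplp1 passed in none of the 6. Rpl28 fell on the contralateral side at days 7 and 30 and on the lesion side at days 7 and 30, by 0.43 to 0.51, from 8.01, 10.1 and 7.61 CPM at day 0, and passed in none of the 4 without unoperated replicate 2. Rps23, a protein of the decoding centre, stood at 0.663, 1.17 and 0.774 CPM at day 0 and was higher on the lesion side at days 7, 14 and 30 (0.74 ± 0.24, 0.91 ± 0.23 and 0.68 ± 0.23; edgeR adjusted p = 0.039, 0.0064 and 0.037) and on the contralateral side at day 30 (0.74 ± 0.24, 0.034). Its day 7 lesion value did not pass under 7 of 16 alternatives. Rpl7a, a large subunit protein, fell in 4 of the 6 comparisons, by 0.36 ± 0.1 in the day 14 lesion pons (edgeR adjusted p = 0.012). The pseudogene Rps3a3, at 0.525, 0.586 and 0.696 CPM at day 0, was called lower in the day 7 contralateral pons (0.308, 0.0498 and 0.389 CPM, edgeR adjusted p = 0.045), a call that 7 of 15 alternatives lost. On the lesion side Rps6 also fell at day 14 (-0.44 ± 0.11, edgeR adjusted p = 0.0076) and Rpl12 at day 30 (-0.38 ± 0.11, 0.017). Day 0 libraries were sequenced deeper than the others, came from younger mice and may come from a run of their own. The part of any of these in the values was not tested.

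**Figure D5:**
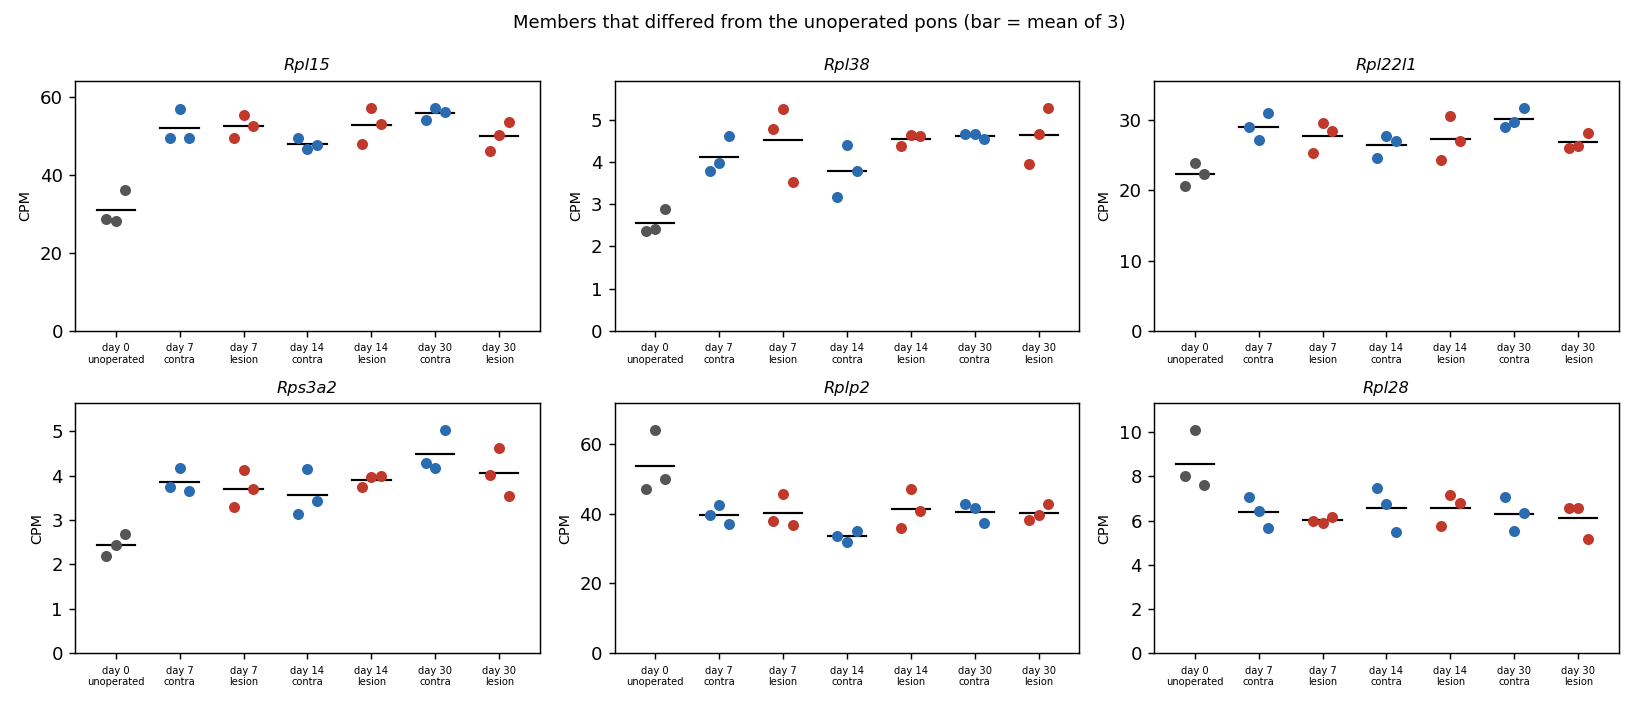
CPM per library (y axes from 0) of Rpl15, Rpl38, Rpl22l1, Rps3a2, Rplp2 and Rpl28 in the 7 groups (x axes), with 1 point per library and a bar at the mean of 3. The unoperated Rpl15 points, 28.1 to 36.2 CPM, lie below all operated ones, and the unoperated Rplp2 points, 47 to 64 CPM, lie above all but 1.

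Less common paralogs were compared with their common counterparts per kb of exon. Rpl22l1 stood at 13.6 CPM per kb and Rpl22 at 36.5, Rpl7l1 at 15.4 and Rpl7 at 25.9, and Rps4l at 24.9 and Rps4x at 28.5. Rpl36al (7.32 CPM per kb), which is not a member by the name rule, and Rps27l (9.42), a p53-responsive paralog, were above Rpl36a (3.47) and Rps27 (1.56). The striated muscle form Rpl3l was at 0.492 CPM per kb against 12.5 for Rpl3, Rpl39l at 0.0769 against 7.42 for Rpl39, and Rpl10l at 0 against 2.85 for Rpl10. Over the 7 paralogs tested the median log2 differences between sides were -0.01, 0.13 and -0.13 at days 7, 14 and 30, and none was called. Rps27l was higher than day 0 on the lesion side at day 7 (8.89 against 6.48 CPM, 0.46 ± 0.12, edgeR adjusted p = 0.012) and on the contralateral side at day 30 (8.41 CPM, 0.37 ± 0.12, 0.038). These calls were lost under 3 and 5 of 16 alternatives, the second also with library totals alone. The common forms Rpl3 and Rpl22 were higher than day 0 in 3 and 2 of the 6 comparisons, among them the contralateral side at day 30 (0.3 ± 0.08 and 0.27 ± 0.06; edgeR adjusted p = 0.015 and 0.0014).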

How the data were processed

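The authors' deposited count table holds raw counts per gene symbol for 45664 rows. Per the labels, 300 ng of total RNA went into a stranded mRNA kit. Per the series' design text, 50-base single reads were made, aligned with Rsubread at default settings with GENCODE M7 as reference and counted with featureCounts; per the submitters' processing notes the build was GRCm38.p4 and CASAVA 1.8.2 was used. The strand setting is not given in the sources used here. The deposited log2 matrix (voom) was used to check column assignment and as an alternative. Day 30 count columns were assigned by the sample descriptions, which swap the sides in the column names.

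Counts of the 22294 genes with a summed count above 29 were fitted with edgeR 4.0.16 in R 4.3.3 (TMM, robust quasi-likelihood F-test, 21 libraries in 1 model, 1 coefficient per group, 12 comparisons). Each comparison was adjusted over all genes by Benjamini-Hochberg, and a call is an adjusted p under 0.05. An exact test of 3 against 3 cannot go below 0.1. Fits were checked on simulated counts. CPM is TMM-scaled; the length column per gene is the authors' value. Separate animals are not stated for the replicates, so p-values measure the spread between these samples.

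Members and lists were chosen with earlier results of these data known. Named members were up to 5 called each way between sides, up to 3 each way in other comparisons, the paralogs with their counterparts, the 3 highest and 3 lowest, Rpsa and the stalk genes; up to 3 genes were named per other list. Rpl8 and Rps3 at days 14 and 30, Rpl4 at day 7, Rpl7a for its copies, Rpl19 and Rps15 were named after their values were seen. Same-numbered left and right libraries correlated across genes, after group means were removed, at 0.11 to 0.19 on day 7, -0.01 to 0.18 on day 14 and 0.14 to 0.16 on day 30. By the rule of a correlation over 0.1 the numbers were read as pairing libraries on days 7 and 30, which the reported fit does not use. On day 14 replicates 1 and 3 met it (0.18 and 0.11) and replicate 2 did not (-0.01), so pairing there is undecided. Alternatives were limma-voom (limma 3.58.1), DESeq2 1.42.0, other scalings and filters, a replicate block, only the groups compared, each replicate left out, and, added after seeing the data, the deposited log2 matrix and the exon length offset.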

Additional observations from a re-analysis of the deposited data

How the results depend on the processing

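Of the 57 calls of named genes refitted under the alternatives, none changed sign. Members called between sides at day 14 (5) were 13 with no filter on low counts (3.75% of all genes called), 3 with limma-voom (3.54%), 2 with only the groups compared (2.23%), 22 with the replicate block (8.57%), and 1 to 21 with single replicates left out (1.98% to 9.02%), beside 3.88% of all genes in the reported fit; all 5 were among the 22. At day 30, 1 member was called with only the groups compared, and 0 under every other alternative; at day 7 it was 0 under all. The day 30 minus day 14 difference (0 called) gave 6 with no filter (1.01% of all genes), 2 with DESeq2 (1.24%), 1 with only the groups compared (0.345%), 13 with the replicate block (3.34%), and 0 to 18 with single replicates left out (0.0181% to 4.48%), beside 0.0807% of all genes in the reported fit. The block changed no other call of sides. Against day 0, with only the groups compared, the counts were 6 (contralateral) and 6 (lesion) at day 7 and 7 (lesion) at day 14. With the exon length offset they were 17 and 19 at day 7, split 10 to 7 and 13 to 6 (12.2% and 14.3% of all genes called in either direction). Leaving out single replicates gave 5 to 11 (contralateral day 7), 13 to 34 (contralateral day 14), 5 to 14 (lesion day 7) and 10 to 18 (lesion day 30). For single replicates left out and only the groups compared, the shares of all genes called against day 0 are not given here. The cause of these shifts was not tested. With mitochondrial counts left out of the total, the mean member share at day 0 was 0.411% (from 0.398%). On the contralateral side it was 0.403% (from 0.386%), 0.358% (from 0.341%) and 0.436% (from 0.407%) at days 7, 14 and 30. On the lesion side it was 0.415% (from 0.4%), 0.414% (from 0.398%) and 0.408% (from 0.383%). The members' median ran from 0.13 to 0.29 between sides at day 14, -0.12 to -0.03 at day 30 and -0.03 to 0.1 at day 7. These 57 gave 795 kept and 121 lost calls over the alternatives. Rplp0 at day 14 passed under all 17 (edgeR, DESeq2 or limma adjusted p from 2.9e-05 to 0.024). Members under 5 CPM, 27 of 87, are limited by depth.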
